A study of Mus musculus with 6 samples.

Results

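Fibroblast growth factors (FGFs) and their receptors were examined in ribosome-bound RNA of medial amygdala (MeA) *Kiss1* cells. The genes described are 2 receptors (*Fgfr1* and *Fgfr2*), 3 secreted ligands (*Fgf1*, *Fgf9* and *Fgf10*) and the 4 intracellular FGF homologous factors (*Fgf11*, *Fgf12*, *Fgf13* and *Fgf14*). All 9 have a row in the authors' table of 13886 genes, from which low genes had been removed. The family was selected on the measured E2 difference of *Fgfr1*, which was already known, so that difference is given as a description, without a test. The other 8 genes were included by name as its relatives, with earlier results of these data known. Not every relative with a row is among them.

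Secreted FGFs bind receptor tyrosine kinases at the cell surface together with heparan sulphate, and the receptors signal through docking proteins to the RAS-MAPK and PI3K-AKT pathways. The FGF homologous factors share the FGF fold but are not secreted in the classical way, and are known in neurons as partners of voltage-gated sodium channels. In the brain, FGF signalling is known for roles in neurogenesis, synapse formation and glial biology, and loss of *FGFR1* function in people is a cause of hypogonadotropic hypogonadism.

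All 6 libraries came from adult female Kiss1Cre+/Rpl22HA+/+ mice, in which Cre driven from *Kiss1* puts a hemagglutinin tag on ribosomes. The recombination is permanent, so a cell that expressed *Kiss1* at an earlier time keeps the tag. Every female was ovariectomized (OVX) at 8 weeks of age, carried an estradiol (E2) capsule for 4 days to drive Cre, and then spent 7 days without it. The 3 OVX libraries are from females given nothing further and the 3 E2 libraries from females given a new E2 capsule, both killed 5 days later. Each library is 1 pool of MeA punches from 4 mice after immunoprecipitation (IP) of tagged ribosomes, the strain is not given in the sources used here, and no library from mice without Cre was analysed here.

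Scaled library sizes ran from 28.1M to 34.2M reads and the correlation between libraries, across genes, from 0.977 to 0.989. Values are log2 CPM, the log2 of counts scaled to a common library size, and differences are E2 minus OVX on that scale with the standard error (SE) of the limma fit over all genes. Neuron markers were high in every library, with *Snap25* at 10.87 to 11.09, but glial markers were far from absent: the astrocyte glutamate transporter *Slc1a2* was at 9.70 to 10.17 and the myelin gene *Mbp* at 9.47 to 9.95. A level in these libraries is therefore a level in the IP, and fewer cells of a type and less RNA per cell cannot be told apart. *Kiss1* itself, on ENSMUSG00000115958, the more abundant of the pair of gene models with that symbol, was at 2.29, 1.82 and 1.13 in OVX and 3.72, 3.80 and 3.45 in E2 libraries.

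Because close relatives can share reads, the coding sequences of the family were compared first. The in-frame stretch of 1 read length (75 bases) with the fewest mismatches to the first gene of its group lies in the kinase-coding part of the receptors and in the conserved core of the homologous factors. It is printed 5′ to 3′ for each gene, from the longest coding sequence in GENCODE mouse release 21 (GRCm38), with bases that differ from the first gene of its group in capitals. Positions are counted from 1 at the A of the start codon: bases 1597 to 1671 in *Fgfr1*, 1630 to 1704 in *Fgfr2*, 1534 to 1608 in *Fgfr3*, 505 to 579 in *Fgf12*, 499 to 573 in *Fgf11*, 493 to 567 in *Fgf13* and 514 to 588 in *Fgf14*.
Fgfr1: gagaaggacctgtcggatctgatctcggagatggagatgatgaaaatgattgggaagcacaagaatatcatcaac
Fgfr2: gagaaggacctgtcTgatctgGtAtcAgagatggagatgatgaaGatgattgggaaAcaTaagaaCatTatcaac
Fgfr3: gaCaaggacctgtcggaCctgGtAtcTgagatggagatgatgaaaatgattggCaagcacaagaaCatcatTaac
Fgf12: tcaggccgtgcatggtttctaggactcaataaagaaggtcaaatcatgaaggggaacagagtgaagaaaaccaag
Fgf11: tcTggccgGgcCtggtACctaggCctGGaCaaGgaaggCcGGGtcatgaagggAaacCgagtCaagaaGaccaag
Fgf13: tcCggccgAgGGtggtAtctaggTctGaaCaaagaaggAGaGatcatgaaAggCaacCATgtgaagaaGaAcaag
Fgf14: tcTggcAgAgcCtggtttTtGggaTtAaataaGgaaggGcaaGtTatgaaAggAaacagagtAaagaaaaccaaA

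In that stretch *Fgfr2* differed from *Fgfr1* at 9 bases and *Fgfr3* at 8 bases of 75, and the other homologous factors differed from *Fgf12* at 16 to 18 bases. The longest identical run shared by *Fgfr1* and *Fgfr3* was 26 bases, and that shared by *Fgfr1* and *Fgfr2* was 20 bases. Over all 120 pairs of the 16 listed family genes the longest run was 58 bases, between annotated transcripts of *Fgf10* and *Fgf13*. No pair shared a run of 75 bases, so a read of full length without errors does not match 2 of these genes equally in the same orientation. Matches to the opposite strand, which unstranded libraries allow, and to genes outside the family were not compared.

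Of the 9 genes, 1 (*Fgfr1*) was among the 40 genes with an adjusted p under 0.05 in the fit over all 13886 genes, where 0.288% of genes were called (0.230% higher and 0.0576% lower with E2), and nothing is read from that count because the gene's difference was known. *Fgfr1* was not called without the mean-variance trend (adjusted p = 0.315) or with forebrain excitatory markers as a covariate. The other 8 were not past the threshold, and 1 of them (*Fgf12*) had an unadjusted p under 0.05, as did 8.56% of all genes. Their differences ran from -0.21 for *Fgf14* to 0.25 for *Fgf12*, with a median of 0.06 against 0.0034 for all genes. The OVX and E2 libraries did not overlap for 3 of the 9 genes, as for 13.7% of all genes. They were *Fgfr1* and *Fgf12*, higher with E2 (6.85% of all genes), and *Fgf14*, lower with E2 (6.82% of all genes).

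**Figure D1:**
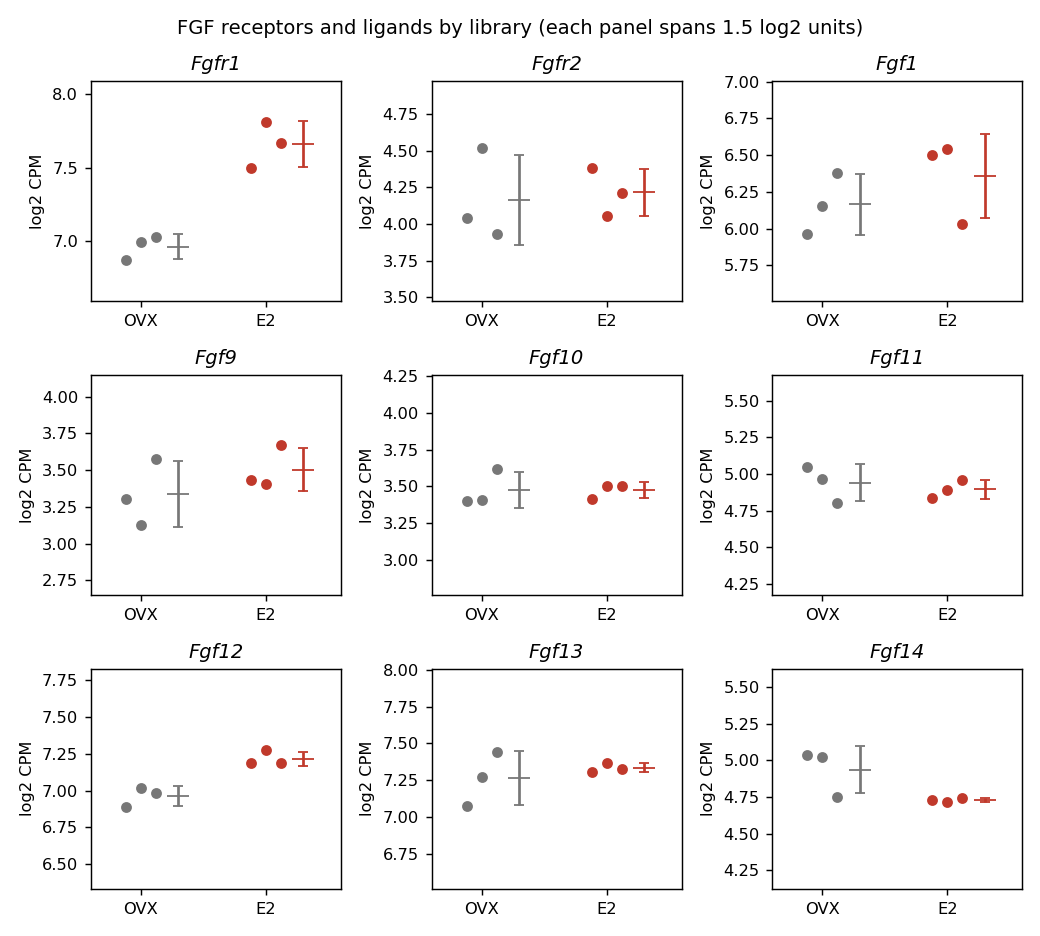
Log2 CPM of the 9 genes in the 3 OVX (grey) and 3 E2 (red) libraries, 1 point per library, with the mean and SD beside the points and every panel spanning the same 1.5 log2 units. *Fgfr1* stands apart between the groups (6.87 to 7.03 against 7.50 to 7.81), *Fgf12* by a smaller step, and the E2 values of *Fgf14* sit just under the lowest OVX value.

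*Fgfr1* (ENSMUSG00000031565, GRCm38 chromosome 8 from 25513654 to 25575718, plus strand) encodes the receptor for many paracrine FGFs that is prominent in neurons. Its log2 CPM was 6.87, 6.99 and 7.03 in OVX and 7.50, 7.81 and 7.67 in E2 libraries, which corresponds to 3303 to 4349 and 5477 to 7635 reads. All E2 libraries lay above all OVX libraries, and the gap between the groups was wider than the range within either. The OVX mean was 6.96 ± 0.08 (SD, n = 3) and the E2 mean was 7.66 ± 0.16 (SD, n = 3), a difference of 0.70 (SE 0.08), or 1.62-fold.

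When each library was left out in turn, the difference was between 0.62 and 0.78, which describes the same values that led to the choice of the gene. Marker genes of forebrain excitatory neurons also differed between the groups: all 7 had a difference below 0, and none was past the threshold. Of the 7, 6 had an unadjusted limma p under 0.05, as did 8.56% of all genes. *Slc17a7* did not overlap between the groups, lower with E2 (6.82% of all genes). The summed level of the 7 markers was 901 to 1165 CPM in OVX and 683 to 891 CPM in E2 libraries. With their mean log2 CPM as a covariate the *Fgfr1* difference was 0.65 (SE 0.12) and no longer past the threshold (limma adjusted p = 0.132). In that fit 2 genes were called over the whole table, against 40 without the covariate. The part of these markers in the *Fgfr1* values was not tested. With the mean log2 CPM of the astrocyte markers as a covariate the *Fgfr1* difference was 0.75 (SE 0.09). Of the 10 astrocyte markers 9 had a difference above 0 (7089 of all 13886 genes) and none was called. An unadjusted limma p under 0.05 was found for 3, all higher with E2, and for 8.56% of all genes in either direction. *Aldoc* and *Gjb6* did not overlap between the groups, higher with E2 as for 6.85% of all genes. The summed level of the 10 markers overlapped, at 1723 to 2147 CPM in OVX and 1881 to 2257 CPM in E2.

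**Figure D2:**
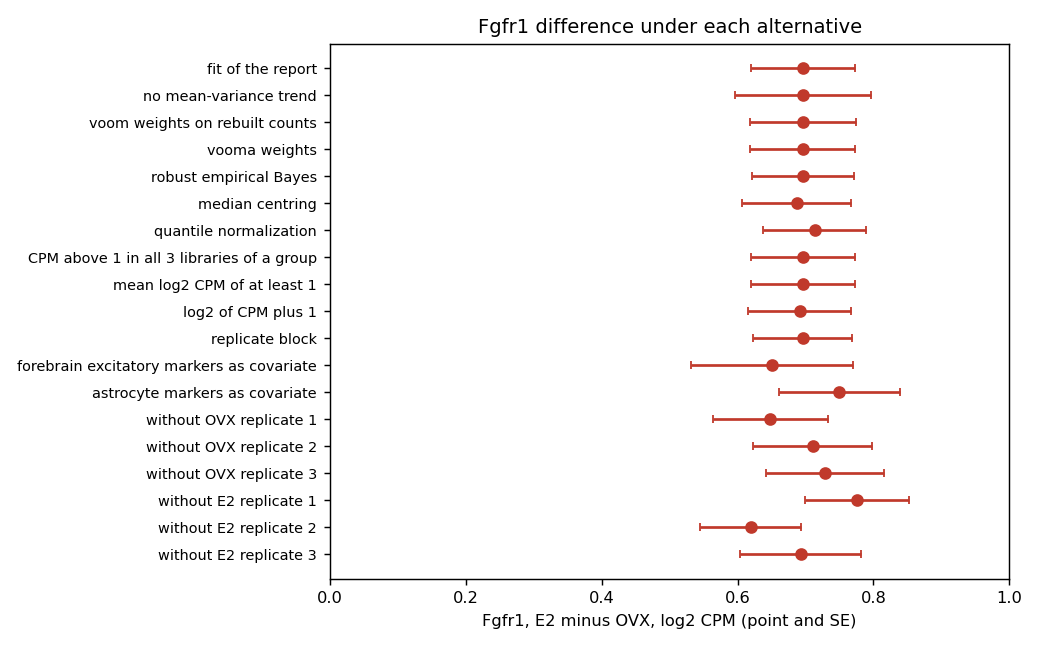
The *Fgfr1* difference, E2 minus OVX in log2 CPM, with its SE under the fit used here and each alternative. All points lie between 0.62 and 0.78, and the SE is widest (0.12) with the forebrain excitatory markers as a covariate.

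*Fgfr2* (ENSMUSG00000030849, chromosome 7 from 130162451 to 133123350, minus strand) encodes the receptor known from epithelia and, in the brain, from astrocytes and the oligodendrocyte lineage. It had 4.04, 4.51 and 3.93 in OVX and 4.38, 4.06 and 4.21 in E2 libraries. The groups overlapped, and the highest values were in OVX replicate 2 and E2 replicate 1, the libraries in which *Mbp* was also highest (9.90 and 9.95). The difference was 0.05 (SE 0.15, adjusted p = 0.967), with a 95% interval from -0.27 to 0.38. The oligodendrocyte markers summed to 1677 to 2333 CPM in OVX and 1870 to 2578 CPM in E2. Of the 10, 9 were above 0 in difference (7089 of all 13886 genes), with no call. An unadjusted limma p under 0.05 was found for 3 of them, all higher with E2, and for 8.56% of all genes. *Pdgfra* did not overlap between the groups, higher with E2 as for 6.85% of all genes (difference 0.54, SE 0.11, adjusted p = 0.0838). The part of these markers in the *Fgfr2* values was not tested. Of the exonic bases of *Fgfr2*, 314 also lie in exons of *Ctbp2* on the same strand, so reads there may belong to either gene.

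Among the family genes outside the 9, *Fgfr3*, known as an astrocyte receptor, was listed at 6.41, 6.52 and 6.30 in OVX and 6.45, 6.30 and 6.70 in E2 libraries. Its difference was 0.08 (SE 0.09, adjusted p = 0.900), with an interval from -0.13 to 0.28. *Fgfrl1*, a receptor-like protein without the kinase domain, differed by -0.21 (SE 0.16, adjusted p = 0.781). *Fgfr4* was not analysed here.

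Within a library, differences between receptors do not depend on how the library was scaled. *Fgfr1* exceeded *Fgfr3* by 0.46, 0.47 and 0.73 in OVX and by 1.05, 1.51 and 0.96 in E2 libraries on the log2 CPM scale, without overlap. Per kilobase of the longest transcript, *Fgfr1* made up 50.7% ± 3.0 (SD, n = 3) of the 3 kinase receptors in OVX and 61.2% ± 4.7 (SD, n = 3) in E2. *Fgfr3* made up 41.0% ± 2.0 and 32.3% ± 4.1, and *Fgfr2* 8.35% ± 1.41 and 6.45% ± 1.08 (SD, n = 3 each). These shares carry the known *Fgfr1* difference and are descriptions.

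**Figure D3:**
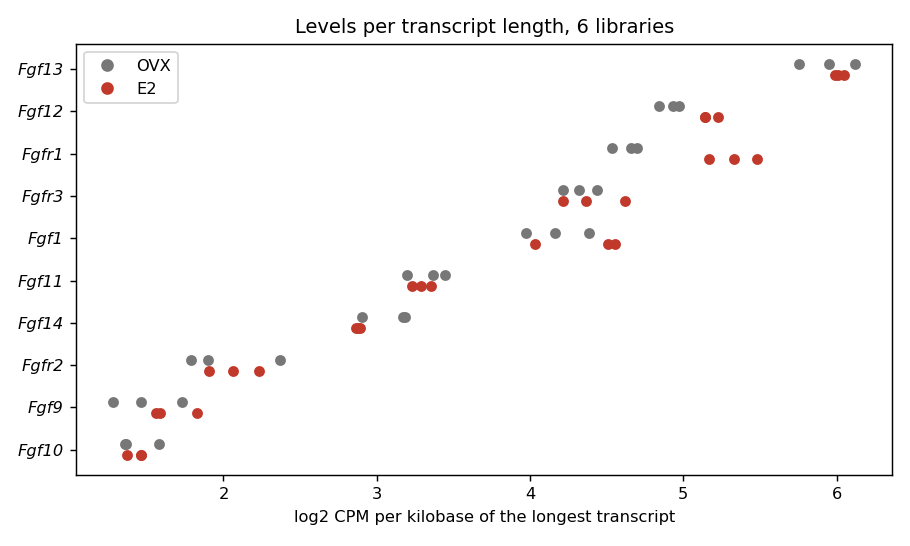
Log2 CPM per kilobase of the longest transcript for the 9 genes and *Fgfr3* in the 6 libraries (OVX grey, E2 red), ordered by the OVX mean. *Fgf13* lies above all others, and *Fgfr1* moves from below *Fgf12* in OVX (means 4.63 and 4.91) to above it in E2 (means 5.33 and 5.17).

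The secreted ligands differed in level. *Fgf1*, the ligand that binds all FGF receptors, lacks a classical signal peptide and is known from neurons. It had 5.97, 6.15 and 6.38 in OVX and 6.50, 6.54 and 6.03 in E2 libraries (ENSMUSG00000036585, chromosome 18). E2 replicate 3 lay among the OVX values, so the groups overlapped. The difference was 0.19 (SE 0.13, adjusted p = 0.743), with an interval from -0.08 to 0.47. It was 0.36 without E2 replicate 3, with an adjusted p = 0.211, and -0.25 (SE 0.11, adjusted p = 1.0) with the forebrain excitatory markers as a covariate.

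*Fgf9* (ENSMUSG00000021974, chromosome 14 from 58070547 to 58112720, plus strand) encodes a secreted ligand first known as a glia-activating factor. It had 3.31, 3.13 and 3.57 in OVX and 3.43, 3.41 and 3.67 in E2 libraries, from 279 to 412 reads. The ranges overlapped, with a difference of 0.17 (SE 0.16, adjusted p = 0.845) and an interval from -0.17 to 0.51.

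*Fgf10* (ENSMUSG00000021732, chromosome 13 from 118669791 to 118792115, plus strand) encodes a ligand of the IIIb form of FGFR2 that is best known from limb and lung and marks tanycytes and some neurons. It had 3.40, 3.40 and 3.62 in OVX and 3.41, 3.50 and 3.50 in E2 libraries. The group means were both 3.47 and the difference was 0.00010 (SE 0.14, adjusted p = 1.0), with an interval from -0.30 to 0.30. Per kilobase, *Fgf1* was the highest of the 3 ligands in each library, at 3.97 to 4.55 against 1.28 to 1.82 for *Fgf9* and 1.36 to 1.58 for *Fgf10*, whose ranges overlap each other.

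A further 5 secreted ligands were listed at lower levels than the 9 genes. *Fgf2*, the classical basic FGF, had a mean log2 CPM of 2.20 and *Fgf22*, a presynaptic organizer, 1.67. *Fgf17* was at 0.66, *Fgf5* at 0.29 and *Fgf16* at 0.12, from 15 to 76 reads per library for *Fgf16*. Reads on 640 exonic bases of *Fgf2* cannot be told from its antisense neighbour *Nudt6* in these unstranded libraries. Their differences ran from -0.11 for *Fgf22* to 0.75 for *Fgf16* (SE 0.54, adjusted p = 0.777), and none was past the threshold. The lowest of the 9 described genes, *Fgf9*, had a mean of 3.42. The remaining 10 of 18 secreted ligands were not analysed here.

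**Figure D4:**
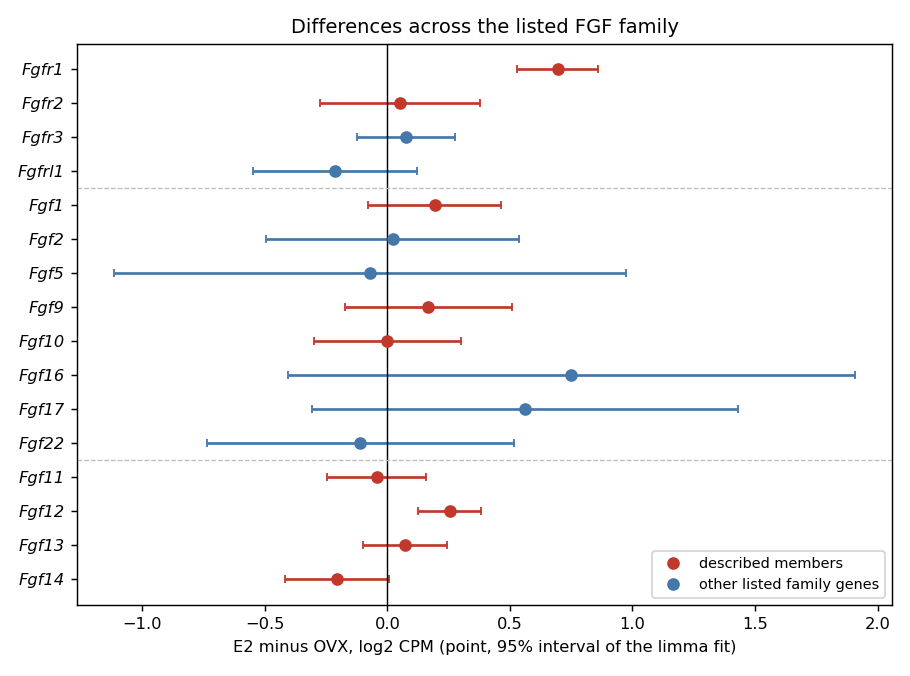
E2 minus OVX difference in log2 CPM with the 95% interval of the limma fit for the 16 listed family genes, grouped as receptors, secreted ligands and homologous factors. The interval of *Fgf12* lies above 0 before adjustment for 13886 genes. That of *Fgfr1* also does, but it describes the values that led to the choice of the gene. The intervals of the low ligands *Fgf5*, *Fgf16* and *Fgf17* are the widest.

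The 4 homologous factors had no call. *Fgf12* (ENSMUSG00000022523, chromosome 16 from 28160098 to 28753068, minus strand) had 6.89, 7.02 and 6.98 in OVX and 7.19, 7.27 and 7.19 in E2 libraries. Each E2 library lay above each OVX library, by a step larger than the spread in either group. The difference was 0.25 (SE 0.06), or 1.19-fold, and it was not past the threshold over all genes (adjusted p = 0.140, and from 0.114 to 1.0 over the alternatives).

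*Fgf14* (ENSMUSG00000025551, chromosome 14 from 123977907 to 124677127, minus strand), whose loss of function in people causes a spinocerebellar ataxia, had 5.03, 5.02 and 4.75 in OVX and 4.73, 4.71 and 4.74 in E2 libraries. The E2 values were tightly grouped and below all OVX values, but OVX replicate 3 was almost level with them. The difference was -0.21 (SE 0.10, adjusted p = 0.600), with an interval from -0.42 to 0.01.

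*Fgf13* (ENSMUSG00000031137, chromosome X from 59062145 to 59568071, minus strand), known also to bind microtubules, had 7.07, 7.27 and 7.44 in OVX and 7.31, 7.37 and 7.33 in E2 libraries. The E2 values lay within the OVX range, with a difference of 0.07 (SE 0.08, adjusted p = 0.875) and an interval from -0.10 to 0.24. *Fgf11* (ENSMUSG00000042826, chromosome 11 from 69796068 to 69801857, minus strand) had 5.05, 4.97 and 4.80 in OVX and 4.83, 4.89 and 4.96 in E2 libraries. Its groups also overlapped, with a difference of -0.04 (SE 0.09, adjusted p = 0.946) and an interval from -0.25 to 0.16.

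Per kilobase of the longest transcript, *Fgf13* was highest of the homologous factors (5.75 to 6.12 log2 CPM), followed by *Fgf12* (4.84 to 5.23), *Fgf11* (3.20 to 3.45) and *Fgf14* (2.86 to 3.18). The ranges over the 6 libraries did not overlap between neighbours in this order. By this measure *Fgf12* held 27.3% ± 1.0 (SD, n = 3) of the group in OVX and 30.5% ± 0.5 (SD, n = 3) in E2, and *Fgf14* 7.75% ± 1.25 and 6.25% ± 0.19. Within each library *Fgf12* exceeded *Fgf14* by 1.85, 2.0 and 2.23 in OVX and by 2.45, 2.56 and 2.45 in E2 on the log2 CPM scale, a pair chosen after the values were seen. These levels are for whole genes, and the alternative first exons of these factors were not separated.

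The promoters of *Fgf12* and *Fgf14* are shown because these are the genes with separated groups, other than *Fgfr1*, that have one in the RefSeq table used (GRCm38.p6). Each runs from 250 bases before to 50 after a transcription start, 5′ to 3′ on the gene's minus strand. Capitals mark GGTCA or its reverse complement TGACC, the element that in a pair makes up an estrogen response element. The *Fgf12* window is chr16:28753194-28753493, the most upstream of its 4 in the table, and that of *Fgf14* is chr14:124192497-124192796, at a start inside the gene as annotated by GENCODE.
Fgf12: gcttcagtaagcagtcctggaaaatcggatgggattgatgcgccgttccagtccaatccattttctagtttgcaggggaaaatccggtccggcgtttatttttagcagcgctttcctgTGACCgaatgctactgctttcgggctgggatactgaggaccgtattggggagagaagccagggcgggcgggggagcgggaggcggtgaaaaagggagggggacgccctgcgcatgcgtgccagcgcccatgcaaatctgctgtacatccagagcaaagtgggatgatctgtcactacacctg
Fgf14: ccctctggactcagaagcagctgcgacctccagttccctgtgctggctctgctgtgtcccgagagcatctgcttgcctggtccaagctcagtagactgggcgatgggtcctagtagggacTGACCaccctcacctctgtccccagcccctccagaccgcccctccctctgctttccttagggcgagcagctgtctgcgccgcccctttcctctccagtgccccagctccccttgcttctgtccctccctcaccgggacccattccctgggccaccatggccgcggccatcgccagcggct

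The full estrogen response element, an inverted pair of GGTCA with 3 bases between, was in 0 of 13 windows of the 7 genes that had one, on either strand, and in 0.07% of all 32851 windows of this length. *Fgfr1* had no window among those used, so its promoter was not searched. GGTCA on either strand was in 5 of the 13 windows, belonging to *Fgf9*, *Fgf10*, *Fgf12* and *Fgf14*, against 40.5% of all windows. A match or its lack describes these letters in this window only.

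The other genes of the pathway were counted from lists of binding partners and signalling proteins. Of 112 genes in 8 lists, 109 were listed, and 0 had an adjusted p under 0.05 with limma, where 0.288% of all genes did. At an unadjusted p under 0.05, 4 were higher and 12 lower with E2 (14.7%, against 8.56% of all genes). The groups did not overlap for 6 genes with E2 higher and 18 with E2 lower, 22.0% together against 13.7% of all genes. The median difference was between -0.13 and 0.02 in each list, against 0.0034 for all genes.

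Among the surface partners, 3 of 8 listed genes had an unadjusted limma p under 0.05, all lower with E2. Over all 13886 genes 8.56% had such a p in either direction, and 603 genes were lower. *Flrt3*, a transmembrane protein that binds FGF receptors, had 4.57, 4.60 and 4.65 in OVX and 4.38, 4.40 and 4.33 in E2 (difference -0.24, SE 0.10, adjusted p = 0.50). *Cdh2*, N-cadherin, differed by -0.12 (SE 0.06, adjusted p = 0.581). For *Kl*, the co-receptor alpha-klotho, the difference was -0.40 (SE 0.18, adjusted p = 0.561), and with the astrocyte markers as a covariate it was -0.75 and past the threshold (adjusted p = 0.0143). *Kl* was highest in OVX replicate 2 (5.30) and lowest in E2 replicate 2 (4.22), as was the choroid plexus gene *Ttr* (9.94 and 8.49). The choroid plexus and ependyma markers summed to 670 to 1047 CPM in OVX and 381 to 1002 CPM in E2, and all 6 were lower in difference; their part in the *Kl* values was not tested.

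Heparan sulphate genes were split in direction. *Sdc4*, a syndecan core protein, had 4.51, 4.62 and 4.51 in OVX and 4.85, 4.70 and 4.91 in E2 (difference 0.27, SE 0.10, adjusted p = 0.422), while the glypicans *Gpc4* and *Gpc3* differed by -0.30 (SE 0.12, adjusted p = 0.502) and -0.34 (SE 0.17, adjusted p = 0.634). Of the 20 genes of synthesis and sulphation, 10 were above 0 in difference. *Extl1*, of the exostosin family, had the smallest p of the list, with 6.08, 6.04 and 5.99 in OVX and 5.76, 5.58 and 5.74 in E2 (difference -0.34, SE 0.07, adjusted p = 0.0942). *Hs3st1*, a 3-O-sulphotransferase, was at 3.92, 3.84 and 3.98 in OVX and at 4.39, 4.37 and 4.31 in E2 (difference 0.44, SE 0.11, adjusted p = 0.159), and *Sulf2*, which trims 6-O-sulphate, differed by 0.26 (SE 0.12, adjusted p = 0.583).

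Downstream of the receptors, 0 of 18 adaptors had an unadjusted limma p under 0.05, where 8.56% of all genes did. The smallest were those of *Shc3* (difference -0.29, SE 0.14, adjusted p = 0.599), *Gab2* (-0.17, SE 0.10, adjusted p = 0.689) and the FGF receptor substrate *Frs3* (0.18, SE 0.10, adjusted p = 0.700). Of the 20 kinases and RAS genes, 5 were above 0 in difference, as were 7089 of all 13886 genes. At an unadjusted limma p under 0.05, 3 of the 20 were lower, as were 603 of all 13886 genes. Among these 3 were *Pik3r1* (-0.16, SE 0.06, adjusted p = 0.489), a regulatory subunit of PI3K, and *Rps6ka2* (-0.13, SE 0.06, adjusted p = 0.567).

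Genes often used as readouts of FGF signalling had differences in both directions. Of the 12 feedback inhibitors 6 were above 0 in difference. *Dusp5*, a nuclear ERK phosphatase, had 3.07, 2.78 and 2.66 in OVX and 2.21, 2.25 and 2.38 in E2 (difference -0.55, SE 0.19, adjusted p = 0.412), *Spry1* differed by 0.35 (SE 0.19, adjusted p = 0.664) and *Spred2* by -0.10 (SE 0.07, adjusted p = 0.771). Among the 8 transcription factors *Fosl2* differed by 0.45 (SE 0.12, adjusted p = 0.195), *Etv5* by -0.26 (SE 0.09, adjusted p = 0.422) and *Etv1* by -0.18 (SE 0.10, adjusted p = 0.669).

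Of 12 genes listed as sodium channel partners of the homologous factors, which include the ankyrin *Ank3* and the scaffold gene *Mapk8ip2* beside channel and subunit genes, 5 had a difference above 0. *Scn8a*, the channel of the axon initial segment, had 7.96, 7.93 and 7.86 in OVX and 7.66, 7.61 and 7.80 in E2 (difference -0.22, SE 0.06, adjusted p = 0.263). The subunit gene *Scn4b* differed by 0.44 (SE 0.23, adjusted p = 0.641), with E2 replicate 3 of *Scn4b* (3.72) well above the other libraries (2.58 to 2.84).

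**Figure D5:**
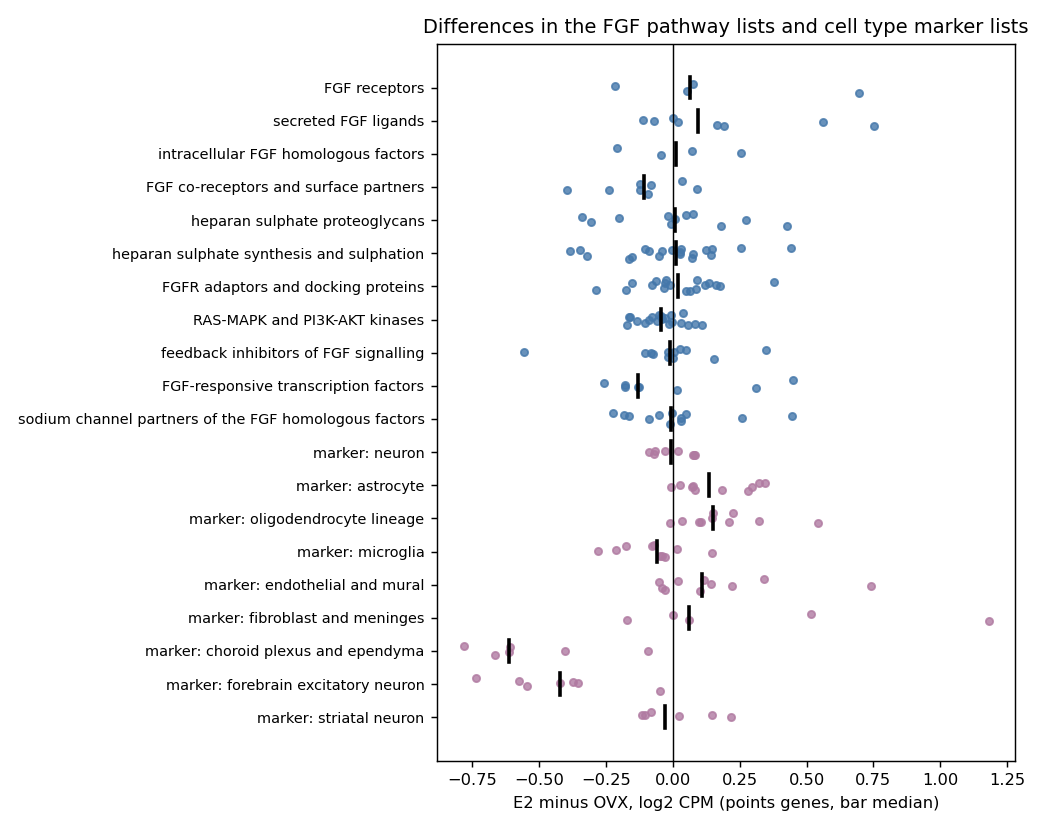
E2 minus OVX difference in log2 CPM of each listed gene (points) and the list median (bar) for the FGF family and pathway lists (blue) and the cell type marker lists (purple). The pathway medians lie close to 0, while the medians of the forebrain excitatory and choroid plexus lists are -0.42 and -0.61.

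Across the 6 libraries, the genes whose log2 CPM was most like that of *Fgfr1* were *Elovl4* (Pearson r = 0.992), *Cd1d1* (0.990), *Zscan12* (0.985), *Jarid2* (0.983) and *Aasdhppt* (0.982). Those most opposite were *Rnf121* (-0.993), *Kcnh1* (-0.990) and *Sostdc1* (-0.987). None of these 8 was itself past the threshold between E2 and OVX, and the points share the libraries and their 2 groups. The 8 were the extremes of a search over all genes with 6 points each, where r of this size can arise by chance. Whether any r exceeded what such a search gives by chance was not tested, so no link to *Fgfr1* is read from these values. Likeness in pattern was not likeness in size: the difference of *Elovl4* was 0.12 (SE 0.08, adjusted p = 0.723) and that of *Cd1d1* 1.55 (SE 0.31, adjusted p = 0.0667).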

How the data were processed

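RNA-seq was performed by the authors on MeA IP RNA with an unstranded poly(A) kit. Per the submitters' processing notes and the study's methods, reads were checked with FastQC 0.11.8, trimmed with Trimmomatic 0.38, aligned to GRCm38 with STAR 2.6.0a and counted per gene with RSEM, and genes were limited to protein-coding ones above a minimum. The deposited values are log2 CPM, which the authors made with TMM scaling and voom, and their group means. A deposited table of the authors' own comparison (fold change, statistic, p-values) was not used.

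E2 and OVX libraries, 3 each, were compared using limma 3.58.1 (R 4.3.3) fitted to 13886 genes of log2 CPM, with treatment as the only term and a mean-variance trend; p-values were two-sided, adjusted by Benjamini-Hochberg across the whole table and called under 0.05. The study used voom weights, which enter here as an alternative on rebuilt counts. Counts were rebuilt by treating a library's lowest value as 0 reads with the voom offset of 0.5, and 100% of them had at most 2 decimals within 0.001 reads. The median SE was 0.11, and an exact permutation of 3 against 3 cannot go below p = 0.1. The pipeline was tested on simulated data. The members and gene lists were chosen with earlier results of these data known. Genes named are the 9 members, the other listed family genes, in each pathway list those called and the 3 with the smallest p, the 5 most and 3 least like *Fgfr1*, *Kiss1* and marker genes. A few of these genes are left out and not reported here. Positions, transcript lengths and transcripts came from GENCODE mouse release 21 on GRCm38, which holds 13881 of the genes. Promoters came from RefSeq (GRCm38.p6), with an entry for 7 of the 9 members and none for *Fgfr1*. Python 3.11.15 and pandas 2.3.3 handled sequences. The 18 alternatives covered weights, trend, scaling, filters, the pseudocount of 1, a replicate block, covariates and each library left out.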

Additional observations from a re-analysis of the deposited data

How the results depend on the processing

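The *Fgfr1* difference kept its direction in all 18 alternatives and stayed between 0.62 and 0.78 when each library was left out. The gene was among those called in 16 of the 18 alternatives. These refits describe the same values that led to the choice of the gene and are no test of it. The number of family genes called was 0 without the mean-variance trend and 0 with the forebrain excitatory markers as a covariate, where the whole table gave 0 and 2 called genes (1017 and 536 at an unadjusted p under 0.05) against 40, and it was 1 with each library left out in turn. Over the whole table, leaving out 1 library gave from 20 (without E2 replicate 2) to 66 (without E2 replicate 3) called genes, with 21 without OVX replicate 1 and 26 without E2 replicate 1; the cause was not tested. In the fit with a replicate block 35 genes were called and the *Fgfr1* difference was 0.70 with an SE of 0.07; the numbers were not taken to pair libraries, since the deviations of libraries with the same number correlated at -0.02, -0.12 and -0.08 across genes, and the block changed no call among the 9 genes.

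The other 8 genes were called in 0 of 144 refits, and 18 of these had the opposite sign, all of differences near 0 or under a covariate. *Fgf10* was -0.0090 with median centring, -0.025 with quantile normalization, -0.00013 on log2 of CPM plus 1 and -0.059 with the forebrain excitatory markers as a covariate. With that covariate *Fgfr2* was -0.0096, *Fgf1* -0.25, *Fgf11* 0.13 and *Fgf13* -0.11, and *Fgfr2* was -0.20 with the astrocyte markers. With each library left out, *Fgf10* ran from -0.037 to 0.072, *Fgfr2* from -0.064 to 0.23, *Fgf11* from -0.11 to 0.011 and *Fgf13* from -0.023 to 0.16. Median centring moved the median of all genes by -0.0091 and quantile normalization by -0.0038. The order of the members by level depends on length: *Fgfr1* ranked 1 and *Fgf13* 2 by log2 CPM, but 3 and 1 per kilobase of the longest transcript. The counts of called genes in the 11 family and pathway lists did not change with median centring or with any library left out (7 alternatives), and *Kl* was called with the astrocyte covariate (-0.75, adjusted p = 0.0143).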
